A study of Mus musculus with 10 samples.

Results

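Potassium channels set the resting potential of retinal cells and end their electrical responses. The genes described here are the Kcn genes of mouse, which encode the pore-forming subunits of these channels and the auxiliary subunits that bind them. Every gene of the deposited count table whose symbol begins with Kcn was taken (99 genes). Of these, 5 antisense or opposite-strand transcripts were left out, as were Kcnj8 and Kcnj10. The remaining 92 genes stand among 57186 genes in the table, and 22756 of those genes were counted at least once.

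The samples were neuroretinas of female C57BL6/JRj mice, taken 14 days after an injection into the vitreous and snap-frozen. The CNP group (5 libraries, numbered 4, 8, 12, 16 and 20 in the labels) had received 1 µL of hg-C3N4, a graphitic carbon nitride nanoparticle, at 1 mg/mL, diluted in phosphate-buffered saline (PBS). The PBS group (5 libraries, numbered 2, 6, 10, 14 and 18) had received PBS alone, so both groups had been injected. The labels speak of 5 mice for CNP and 5 eyes for PBS and do not otherwise say that each library came from its own animal. The p-values given here therefore measure the spread between these libraries.

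A voltage-gated channel of the Kv type is a tetramer whose pore opens on depolarisation. Silent Kv subunits such as Kcnv2 form no channel alone and change the gating of their partners. Kcnv2 is known for its role in photoreceptor inner segments. Inward rectifiers (Kcnj genes) and two-pore leak channels (Kcnk genes) hold the membrane near the potassium equilibrium potential. The pigment epithelium behind the photoreceptors uses the inward rectifier Kir7.1, encoded by Kcnj13, in its apical membrane.

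The promoters of 3 members that the results below turn on are shown, because they stand for channels that moved in opposite directions across the libraries. The windows hold 250 bases before and 50 bases after the RefSeq transcription start, on build GRCm38.p6, and are printed in the direction of transcription. Kcnj13 lies at chr1:87394680-87394979, Kcna5 at chr6:126535506-126535805 and Kcnh2 at chr5:24329542-24329841, all on the minus strand. Capitals mark CATGTG (an E-box form, here on the other strand as CACATG) in Kcnj13 and GGGCGG (the GC box) in Kcnh2, while the Kcna5 window held neither of them nor TAATCC, the core bound by photoreceptor homeobox factors.

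Kcnj13: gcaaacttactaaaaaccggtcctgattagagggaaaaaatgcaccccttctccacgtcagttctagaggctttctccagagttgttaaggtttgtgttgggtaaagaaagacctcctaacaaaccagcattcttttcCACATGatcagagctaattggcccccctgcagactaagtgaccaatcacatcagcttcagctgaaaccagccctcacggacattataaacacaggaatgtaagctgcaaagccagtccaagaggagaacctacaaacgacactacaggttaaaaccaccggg

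Kcna5: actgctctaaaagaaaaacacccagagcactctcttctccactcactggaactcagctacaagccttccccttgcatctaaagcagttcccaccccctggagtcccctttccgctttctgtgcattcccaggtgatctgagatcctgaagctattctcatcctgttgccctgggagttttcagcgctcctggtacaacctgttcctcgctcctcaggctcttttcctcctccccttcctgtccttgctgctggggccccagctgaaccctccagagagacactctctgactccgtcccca

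Kcnh2: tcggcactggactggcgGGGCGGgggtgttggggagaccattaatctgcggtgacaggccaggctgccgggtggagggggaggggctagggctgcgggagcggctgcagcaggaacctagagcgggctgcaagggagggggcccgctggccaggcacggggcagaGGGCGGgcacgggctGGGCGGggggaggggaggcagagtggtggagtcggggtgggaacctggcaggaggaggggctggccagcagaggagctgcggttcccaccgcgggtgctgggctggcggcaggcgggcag

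The 3 windows differed in base composition, with a GC content of 46.0% for Kcnj13, 55.0% for Kcna5 and 74.3% for Kcnh2. The single CATGTG of Kcnj13 began 112 bases before the start, and Kcnh2 held GGGCGG 3 times. RefSeq windows were matched for 21 of the 27 members at 5 CPM or more, 35 windows in all. GGGCGG or its reverse complement was in 15 of these 35 windows (42.9%) and in 35.7% of all 32851 windows of the same length. CATGTG was in 2 of the 35 (5.71%) against 14.2% of all windows, and TAATCC in 2 (5.71%) against 7.06%. A match says only that these letters are present.

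Total counts ran from 3328518 to 5428697 per library, and Kcn genes held 0.161% to 0.216% of them. Levels are CPM (counts scaled to a common total), with library totals scaled by the trimmed mean of M-values. Rod markers summed to at least 64453 CPM in every library, and 6 of 8 pigment epithelium markers were also abundant enough to test. None of the 11499 genes tested differed between CNP and PBS at an adjusted p under 0.05 (edgeR's quasi-likelihood test, Benjamini-Hochberg adjustment). At an unadjusted p under 0.05 there were 138 by edgeR, 86 by DESeq2 and 143 by limma-voom.

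Of the 92 Kcn genes, 27 had a mean of 5 CPM or more, 23 lay between 1 and 5 CPM, 30 had counts but less than 1 CPM, and 12 had no count in any library. The 2 most counted members, Kcnab2 and Kcnj14, held 50.7% of all Kcn counts, and the 6 most counted held 76.2%. The classes differed in how many of their members were present. All 4 Kcnip genes and all 3 Kcnab genes were at 5 CPM or more, as were 3 of 4 Kv3 genes and 3 of 8 Kv1 genes. No Kv4, Kv7 or BK beta gene was, out of 3, 5 and 4. The 12 genes with no count were Kcnh3, Kcnh4, Kcnk16, Kcnk7, Kcna10, Kcng3, Kcnk18, Kcnj1, Kcne1, Kcna7, Kcnj15 and Kcnmb3. With 44317412 counts in all, a count of 0 allows a level of up to 0.0677 CPM, counting error only.

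The member with the most counts was an auxiliary subunit. Kcnab2 (ENSMUSG00000028931), a beta subunit that binds Kv1 channels and aids their transport, was at 564, 577, 493, 598 and 691 CPM in the PBS libraries and at 628, 531, 581, 595 and 643 CPM in the CNP libraries, in the order of library numbers given above. All CNP values lay inside the range of the PBS values. The log2 fold change, CNP minus PBS, was 0.03 (SE 0.11, 95% interval -0.21 to 0.26), an interval narrower than those of all members but Kcne2. Kcnab1 and Kcnab3, the other beta subunits, had means of 17.6 and 16.3 CPM and log2 fold changes of 0.03 and -0.31.

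Kcne2 (ENSMUSG00000039672), a single-span subunit that changes the gating of several Kv channels, was at 94.9, 87.3, 97.1, 106 and 124 CPM in the PBS libraries and at 95.5, 83.8, 89.3, 92.7 and 95.8 CPM in the CNP libraries. The highest CNP library lay below PBS 18, PBS 14 and PBS 10 and above the other PBS libraries. The log2 fold change was -0.15 (SE 0.10, 95% interval -0.38 to 0.07). Kcne1l (ENSMUSG00000090122), also named Kcne5, was the member with the smallest unadjusted p. It was at 8.38, 6.03, 14.1, 8.72 and 7.45 CPM in the PBS libraries and at 14.7, 10.99, 11.1, 12.3 and 9.16 CPM in the CNP libraries. All CNP libraries exceeded 4 of the PBS libraries, and PBS 10 lay above all but CNP 4. The log2 fold change was 0.39 (SE 0.22, 95% interval -0.09 to 0.87), with an unadjusted p of 0.101 and an adjusted p of 1.00 in edgeR's quasi-likelihood test.

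The calcium-binding Kcnip proteins attach to Kv4 channels and raise their surface level. Kcnip1 (ENSMUSG00000053519) was at 54.2, 54.4, 48.9, 25.3 and 26.6 CPM in the PBS libraries and at 48.01, 47.98, 31.8, 39.6 and 30.2 CPM in the CNP libraries. In both groups the libraries with low numbers were high, and the groups overlapped. Kcnip4 (ENSMUSG00000029088) was at 32.4, 38.4, 28.7, 15.3 and 19.4 CPM in the PBS libraries and at 38.2, 31.8, 17.4, 23.2 and 18.3 CPM in the CNP libraries, with the same libraries high. Their log2 fold changes were -0.09 (SE 0.23, 95% interval -0.59 to 0.40) and -0.07 (SE 0.27, 95% interval -0.64 to 0.51). Kcnip3 and Kcnip2 had means of 14.99 and 6.67 CPM and log2 fold changes of -0.12 and -0.07. Their Kv4 partners were scarce: summed over the 3 genes, Kv4 transcripts held 5.83 CPM against 88.7 CPM for the 4 Kcnip genes, a comparison of counts that takes no account of length.

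Kcnv2 (ENSMUSG00000047298), the silent subunit Kv8.2, was at 87.9, 105, 96.6, 101 and 132 CPM in the PBS libraries and at 92.2, 99.8, 111, 81.3 and 115 CPM in the CNP libraries. PBS 18 was the highest and CNP 16 the lowest, and the log2 fold change was -0.06 (SE 0.13, 95% interval -0.34 to 0.21).

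Kcna5 (ENSMUSG00000045534), the Kv1.5 subunit, was at 181, 181, 139.8, 64.1 and 95.6 CPM in the PBS libraries and at 158, 153, 93.2, 82.02 and 93.1 CPM in the CNP libraries. The CNP values lay inside the range of the PBS values, with PBS 14 the lowest of all. Its log2 fold change was -0.20 (SE 0.28, 95% interval -0.80 to 0.40). Kcna1 (ENSMUSG00000047976), the Kv1.1 subunit of axons, was at 15.9, 11.4, 8.25, 5.11 and 3.89 CPM in the PBS libraries and at 10.9, 11.99, 3.895, 4.504 and 5.45 CPM in the CNP libraries, again with the highest and the lowest value in PBS. Its log2 fold change was -0.30 (SE 0.39, 95% interval -1.15 to 0.55). Kcna6 (Kv1.6) had a mean of 16.9 CPM and a log2 fold change of -0.05. It shares 39.6% of its exon bases with the opposite-strand gene Gm26673, which had 2 counts in all.

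Kv3 channels close fast and let neurons fire at high rates. Kcnc1 had the most counts of them, with a mean of 20.8 CPM and a log2 fold change of -0.16. Kcnc2 (ENSMUSG00000035681), the Kv3.2 subunit, was at 12.1, 12.6, 10.9, 4.51 and 7.45 CPM in the PBS libraries and at 10.9, 11.2, 8.39, 8.53 and 7.92 CPM in the CNP libraries. PBS 14 stood lowest and PBS 6 highest, and the log2 fold change was -0.05 (SE 0.24, 95% interval -0.56 to 0.47). Kcnc4 had a mean of 6.38 CPM and a log2 fold change of -0.35. Kcng4, a silent modifier of other Kv channels, had 9.57 CPM and -0.22.

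Kcnh2 (ENSMUSG00000038319), the ERG channel that also repolarises the heart, was at 41.8, 43.8, 36.04, 15.04 and 24.9 CPM in the PBS libraries and at 34.9, 40.4, 23.4, 24.9 and 22.03 CPM in the CNP libraries. Kcnma1 (ENSMUSG00000063142), the pore of the large-conductance calcium-activated (BK) channel, was at 56.2, 57.5, 32.4, 19.6 and 31.1 CPM in the PBS libraries and at 36.2, 42.8, 25.8, 22.04 and 25 CPM in the CNP libraries. For both, PBS 2 and PBS 6 were the highest libraries and PBS 14 the lowest. The log2 fold change was -0.16 (SE 0.26, 95% interval -0.73 to 0.40) for Kcnh2 and -0.39 (SE 0.28, 95% interval -0.99 to 0.22) for Kcnma1. The Kcnma1 value was -0.22 without PBS 2, -0.21 without PBS 6, -0.20 with a term for library numbers above 10 and -0.05 when the model held the pigment epithelium score. The BK subunit Kcnmb2 (ENSMUSG00000037610), which makes the channel inactivate, had the most negative value of all tested members. It was at 4.86, 3.27, 3.47, 1.805 and 2.92 CPM in the PBS libraries and at 2.55, 2.799, 1.798, 2.84 and 2.48 CPM in the CNP libraries, and the log2 fold change was -0.42 (SE 0.26, 95% interval -0.98 to 0.13) with an unadjusted p of 0.123 (edgeR's quasi-likelihood test, adjusted p = 1.00). It was -0.22 without PBS 2, and also -0.22 when the model held the pigment epithelium score. Kcnn1, a small-conductance calcium-activated channel, had a mean of 8.87 CPM and a log2 fold change of 0.13.

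The inward rectifier Kcnj14 (ENSMUSG00000058743), which encodes Kir2.4, was at 338, 334, 362, 541 and 473 CPM in the PBS libraries and at 368, 324, 445, 413 and 389.9 CPM in the CNP libraries. PBS 14 and PBS 18 were the 2 highest libraries and CNP 8 the lowest. Its log2 fold change was -0.08 (SE 0.15, 95% interval -0.40 to 0.25). Kcnj9 (ENSMUSG00000038026), a subunit of G protein-gated rectifiers, was at 14.1, 11.4, 9.55, 4.21 and 5.51 CPM in the PBS libraries and at 10.2, 9.595, 3.596, 6.4 and 4.95 CPM in the CNP libraries, with a log2 fold change of -0.38 (SE 0.34, 95% interval -1.11 to 0.35).

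Kcnj13 (ENSMUSG00000079436), the Kir7.1 gene whose promoter is shown above, was at 10.1, 8.27, 23.7, 40.9 and 34.3 CPM in the PBS libraries and at 21.6, 16.99, 57.8, 32.7 and 36.9 CPM in the CNP libraries. PBS 6 and PBS 2 were the lowest libraries and CNP 12 the highest, and the other 7 values lay between 16.99 and 40.9 CPM in both groups. Its log2 fold change, 0.53 (SE 0.43, 95% interval -0.41 to 1.47), was the largest positive value of all members, with an unadjusted p of 0.242 (edgeR's quasi-likelihood test, adjusted p = 1.00). It was 0.24 without CNP 12, 0.30 without PBS 6, 0.32 without PBS 2 and 0.84 without PBS 14, and it was 0.21 when the model held the pigment epithelium score and 0.32 when it held the library number term. In the GENCODE M21 annotation, 49.1% of the Kcnj13 exon bases overlap exons of Gigyf2 on the opposite strand, and no source used here says whether the counting used strand. Gigyf2 itself ranged from 40.6 to 46.6 CPM in the libraries numbered up to 10 and from 40.2 to 56.9 CPM in those above 10.

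Of the two-pore leak channels, Kcnk1 (ENSMUSG00000033998), the TWIK channel, was at 60.7, 59.8, 54.1, 33.1 and 37.3 CPM in the PBS libraries and at 55.1, 54.97, 30.9, 46.9 and 27.97 CPM in the CNP libraries. Its log2 fold change was -0.19 (SE 0.22, 95% interval -0.67 to 0.30), with the libraries of low number high in both groups. The 2 members just inside the 5 CPM limit were Kcnj5 at a mean of 5.33 CPM and Kcnk3 at 5.32 CPM. Kcnj5 encodes a partner of G protein-gated rectifiers and was at 6.205, 7.75, 7.599, 2.41 and 2.92 CPM in the PBS libraries and at 7.27, 5.997, 2.996, 6.16 and 3.96 CPM in the CNP libraries. Kcnk3 encodes an acid-sensitive leak channel and was at 7.04, 6.72, 6.95, 1.805 and 4.21 CPM in the PBS libraries and at 7.09, 7.796, 4.79, 4.27 and 2.48 CPM in the CNP libraries. Just outside the limit lay Kcna4, an inactivating Kv1 subunit, at 4.43 CPM. It was at 6.88, 4.995, 5.65, 1.805 and 3.56 CPM in the PBS libraries and at 6.37, 6.397, 2.098, 3.32 and 3.22 CPM in the CNP libraries. All 3 genes had values on both sides of 5 CPM, so the limit separates them by their means only. Kcnk13, a leak channel of microglia, was below it at 0.838, 0.861, 0.434, 0.902 and 0.648 CPM in the PBS libraries and at 1.09, 0.3998, 1.199, 1.19 and 0.495 CPM in the CNP libraries, where 3 counts in 1 library come to 0.553 to 0.901 CPM.

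**Figure D1:**
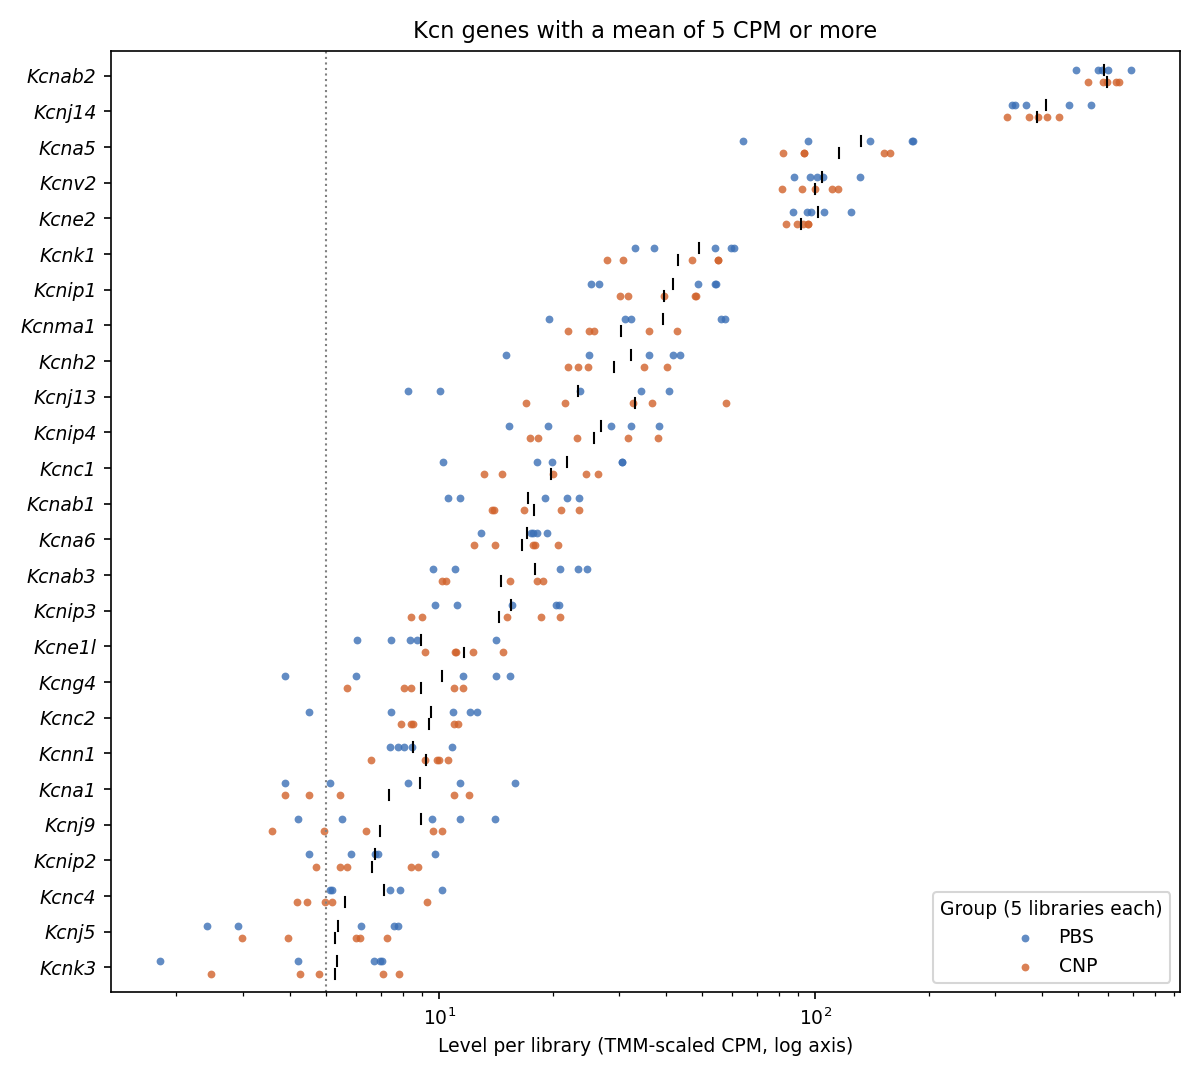
Level of 26 of the 27 Kcn genes with a mean of 5 CPM or more, in TMM-scaled CPM on a log axis, with 1 point per library (5 PBS, 5 CNP) and a black tick at each group mean. Kcnab2 and Kcnj14 stand apart at the top with means of 590 and 399 CPM, the groups overlap for every gene, and the dotted line marks 5 CPM.

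CPM does not allow for transcript length, so levels were also set side by side per length. Divided by the length of the merged exons (GENCODE M21), Kcnj14 was first with 147 CPM per kb, followed by Kcnab2 with 106, Kcne2 with 54.7 and Kcna5 with 43.3 CPM per kb. Kcnj13, at place 11 by CPM, was at place 5 on this scale with 22.3 CPM per kb, since its merged exons are short (1.27 kb). Kcnv2 was at place 7 with 19.98 CPM per kb. This scale holds only if counts grow with transcript length. Reverse transcription used primers carrying molecular identifiers, for which that need not be so, and it was not examined here. The order by CPM and the order per kb are therefore both given, with no choice between them.

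The CNP and PBS groups were compared over the 36 Kcn genes that passed the filter on low counts. Of these, 0 had an adjusted p under 0.05 (0% of all genes tested) and 0 had an unadjusted p under 0.05 (1.2% of all genes tested). DESeq2 and limma-voom also gave 0 members at an unadjusted p under 0.05. Leaving out PBS 14 gave 2 of 40 members (301 of 11718 genes tested). Leaving out PBS 10 gave 1 of 40 (134 of 11639 genes), and leaving out CNP 4 gave 1 of 36 (195 of 11614 genes). The pigment epithelium markers as a covariate gave 3 of 36 (517 of 11499 genes). Each of these settings gave 0 members after adjustment. For none of the 36 members in the main fit did the groups fail to overlap (0.287% of all genes tested). For 32 of the 36 the whole 95% interval was inside a 2-fold difference up or down (94.2% of all genes tested), and for 10 it was inside 1.5-fold (65.3% of all genes tested). The 4 members with wider intervals were Kcnj13, Kcna1, Kcnj9 and Kcnk4, whose intervals include a 2-fold difference. The narrowest intervals were those of Kcne2, Kcnab2 and Kcnv2.

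**Figure D2:**
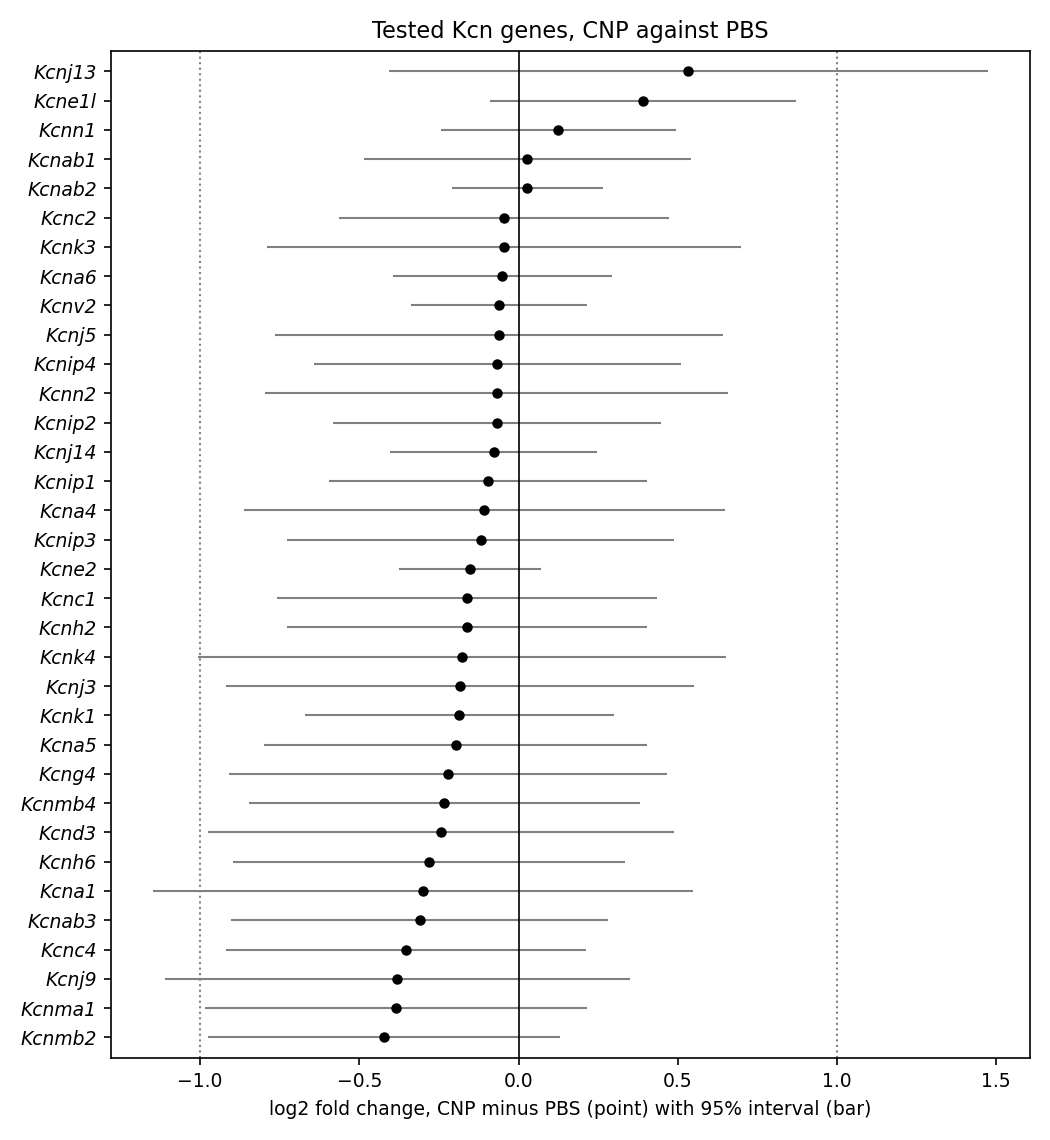
Log2 fold change, CNP minus PBS, with its 95% interval for 34 of the 36 tested Kcn genes, from edgeR's quasi-likelihood fit over 5 and 5 libraries. Every interval drawn includes 0, the dotted lines mark a 2-fold difference in either direction, and Kcnj13 at 0.53 and Kcnmb2 at -0.42 are the extremes.

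The sign of the fold changes was mostly negative, 30 of 36, with a median of -0.13 against -0.0036 over all genes (48.8% of all genes were positive). This direction did not hold under every alternative. DESeq2, other scalings and no filter gave 30 negative in each case, and limma-voom gave 29. With a term for library numbers above 10, 13 were negative and the median was 0.02, and with the pigment epithelium marker score as a covariate, 9 were negative and the median was 0.12. Leaving out PBS 2 or PBS 6 gave 21 negative in each case, and leaving out other libraries gave 23 to 31. Within the libraries numbered up to 10 (3 PBS, 2 CNP), 23 of the 36 had the lower mean in CNP, with a median log2 ratio of -0.07, and within those above 10 (2 PBS, 3 CNP) 9 did, with a median of 0.12. Kcnj13 had log2 ratios of 0.46 and 0.17 within these sets, Kcne1l 0.44 and 0.42, and Kcnmb2 -0.53 and 0.01.

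The levels of Kcn genes differed between libraries of low and high number. The labels give no batch, and the numbers are used here only to order the libraries: 5 were numbered up to 10 (PBS 2, 6 and 10, CNP 4 and 8) and 5 above 10 (PBS 14 and 18, CNP 12, 16 and 20). Of the 36 tested Kcn genes, 19 were lower in every library above 10 than in every library up to 10 (52.8%, against 10.7% of all genes tested), and 3 were higher (9.89% of all genes tested). In all, 29 had the lower mean above 10, with a median log2 ratio of -0.73 against -0.02 over all genes. The members also spread more than most genes: their median biological coefficient of variation within groups was 27.1% against 15.8% over all genes tested.

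The 19 lower genes included Kv1, Kv3, BK, ERG, inward rectifier and leak channels as well as Kcnip and Kcnab subunits. Kcna5, whose promoter is shown above, had 139.8 to 181 CPM in the libraries numbered up to 10 and 64.1 to 95.6 CPM in those numbered above 10. Kcnh2, also shown above, had 34.9 to 43.8 CPM in the libraries numbered up to 10 and 15.04 to 24.9 CPM in those numbered above 10. Kcna1 differed most among the members at 5 CPM or more, with 8.25 to 15.9 CPM in the libraries numbered up to 10 and 3.89 to 5.45 CPM in those numbered above 10, a ratio of means of 2.56. The same ratio was 2.22 for Kcnj9, 1.81 for Kcnip4, 1.82 for Kcnma1, 1.65 for Kcnip1 and 1.62 for Kcnk1. The ranges of these genes did not overlap between the sets, while those of Kcnc1 (ratio 1.73) just met.

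The 3 members higher in every library above 10 included Kcnj13 and Kcnj14. Kcnj13 had 8.27 to 23.7 CPM in the libraries numbered up to 10 and 32.7 to 57.8 CPM in those numbered above 10, a ratio of 2.51 in the other direction. Kcnj14 had 324 to 368 CPM in the libraries numbered up to 10 and 389.9 to 541 CPM in those numbered above 10. Kcnab2, Kcnv2, Kcne2 and Kcnn1 also had higher means above 10, by 1.11-fold, 1.12-fold, 1.11-fold and 1.16-fold, and their ranges overlapped. The scaling bears on these small differences. With library totals only, which move the median over all genes to -0.22, the ranges of Kcnj14 overlapped with a positive log2 ratio of 0.18, and Kcnab2, Kcnv2 and Kcne2 turned to -0.05, -0.04 and -0.06. Kcnj13 was higher without overlap on both scales, and 22 members were lower without overlap in place of 19. The share of all genes lower without overlap was not computed for library totals, so the 22 cannot be set against it.

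Markers of some retinal cell types moved with these sets, and their part in the channel values was not tested. In bulk tissue, fewer cells of a type and less RNA per cell cannot be told apart. A score was the mean log2 CPM of the markers of a type that passed the filter. The amacrine score (8 genes) ran from 6.03 to 6.68 up to 10 and from 4.91 to 5.61 above 10, the rod score (10 genes) from 11.2 to 11.5 and from 11.5 to 11.97, and the pigment epithelium score (6 genes) from 4.56 to 5.73 and from 5.98 to 6.75. These ranges did not overlap between the sets, nor did those of the cone, bipolar and ganglion scores. The Mueller glia, astrocyte, endothelium, pericyte, microglia and lens scores overlapped. For Mueller glia the score ran from 8.14 to 8.39 up to 10 and from 7.84 to 8.24 above 10. No list had a marker at 0 counts over all libraries. As summed CPM, amacrine markers spanned 589 to 1693 in PBS and 827 to 1495 in CNP, and pigment epithelium markers 471 to 2377 in PBS and 907 to 2452 in CNP. Mitochondrially encoded genes held 1.96% to 2.39% of counts up to 10 and 3.21% to 4.45% above 10. The scores that did not overlap between the sets were tied to each other over the 10 libraries. The r was -0.90 between rod and amacrine, 0.96 between amacrine and ganglion and 0.84 between rod and pigment epithelium. A match of a channel to 1 list therefore does not single out that cell type.

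**Figure D3:**
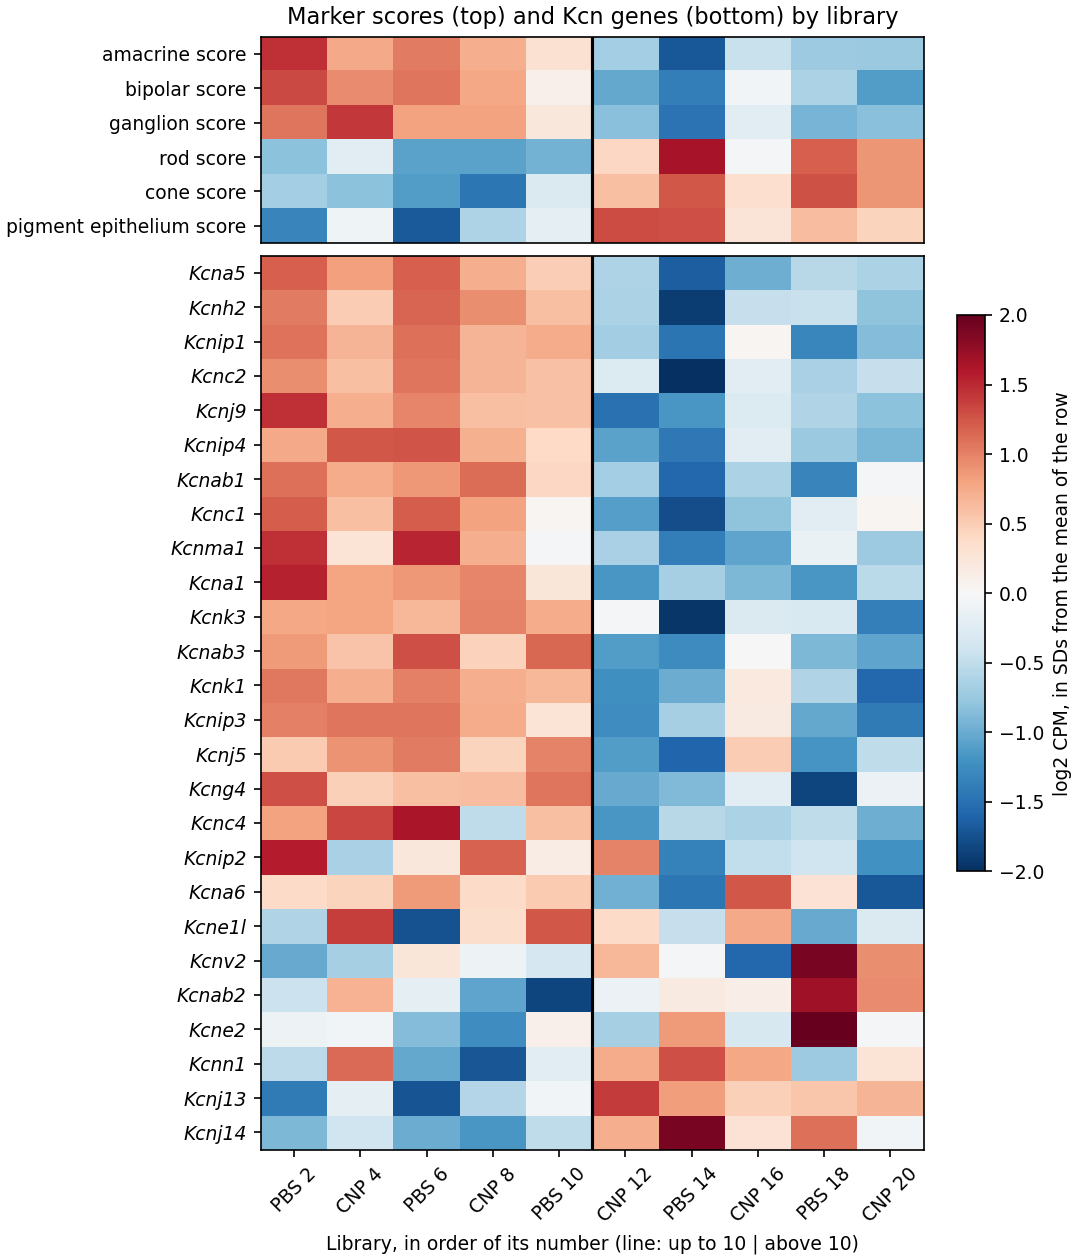
The 6 marker scores (top) and 26 of the 27 Kcn genes at 5 CPM or more (bottom) in the 10 libraries, ordered by library number with a line between 10 and 12; colours give log2 of CPM plus 0.5 (for scores, the score itself) as SDs from the mean over libraries, red high and blue low. The genes are sorted by their correlation with the amacrine score: 20 go with it, from Kcna5 at the top, and those from Kcnv2 to Kcnj14 go against it.

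Over 27 members and 12 marker lists, 324 correlations were computed, and 161 had an adjusted p under 0.05 (Pearson, permutation, two-sided, adjusted over the 324). The share of all tested genes that would pass was not computed, so the counts in this paragraph do not set Kcn genes apart from other genes. With the amacrine score, 20 of 27 members had a positive r, and 17 passed, while 3 passed with a negative r. With the rod score 5 passed with a positive and 16 with a negative r, and with the pigment epithelium score 3 and 17. No member passed with the lens or pericyte score. The 7 members opposite to the amacrine score included Kcnj14, Kcnj13, Kcnn1, Kcne2, Kcnab2 and Kcnv2. Within the number sets, that is with each set's mean subtracted, 3 of 27 members had an absolute r above 0.8 with the amacrine score (Kcna5 and Kcnh2 with 0.85 each and Kcnc2 with 0.84), and 1 each did with the rod score (Kcnip1, -0.85) and the pigment epithelium score (Kcnj13, 0.94). For these 5 pairs the pooled r had the same sign and was also above 0.8 in size, from 0.94 to 0.98. Such values within the sets were not confined to these 3 lists. The endothelium score had 2 members with an absolute r above 0.8. The bipolar, cone, ganglion, microglia and Mueller glia scores had 1 each, and the astrocyte, lens and pericyte scores had 0.

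Kcnj13 followed the pigment epithelium markers. Over the 10 libraries r was 0.98 (permutation p = 1e-05, the smallest that 100000 permutations can give, adjusted p = 0.00202) and rho was 0.98 (permutation p = 3e-05). Without the 2 libraries farthest from the median score r was 0.95. Within the number sets r was 0.94 (exact permutation p = 0.000694, adjusted over 5 pairs 0.00347). The Rpe65 gene, which encodes the isomerase that defines the pigment epithelium, ranged from 11.02 to 81.8 CPM over the same libraries.

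Kcnc2 followed the amacrine markers, with r = 0.94 (permutation p = 4e-05, adjusted p = 0.00202) and rho = 0.96 (permutation p = 7e-05). Without the 2 farthest libraries r was 0.98, and within the number sets it was 0.84 (exact permutation p = 0.00444, adjusted over 5 pairs 0.0111). Kcna1 and the ganglion cell markers had r = 0.89 (permutation p = 0.00225, adjusted p = 0.00879) and rho = 0.82 (permutation p = 0.0056), and r = 0.95 without the 2 farthest libraries. Within the number sets r was 0.27 (exact permutation p = 0.485), and whether this differs from the pooled value was not tested.

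The silent subunit Kcnv2 was set against the rod markers. Kcnv2 had r = 0.50 (permutation p = 0.143, adjusted p = 0.207) and rho = 0.41 (permutation p = 0.247), with r = 0.37 without the 2 farthest libraries. Its r was 0.34 within the sets (exact permutation p = 0.501) and 0.03 with library totals only. For each of these scores the number sets did not overlap, and the gap between them was smaller than the range within either set. The pooled values therefore also hold the difference between the sets, and their permutations moved libraries across the sets. Values within sets are given beside them for that reason.

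**Figure D4:**
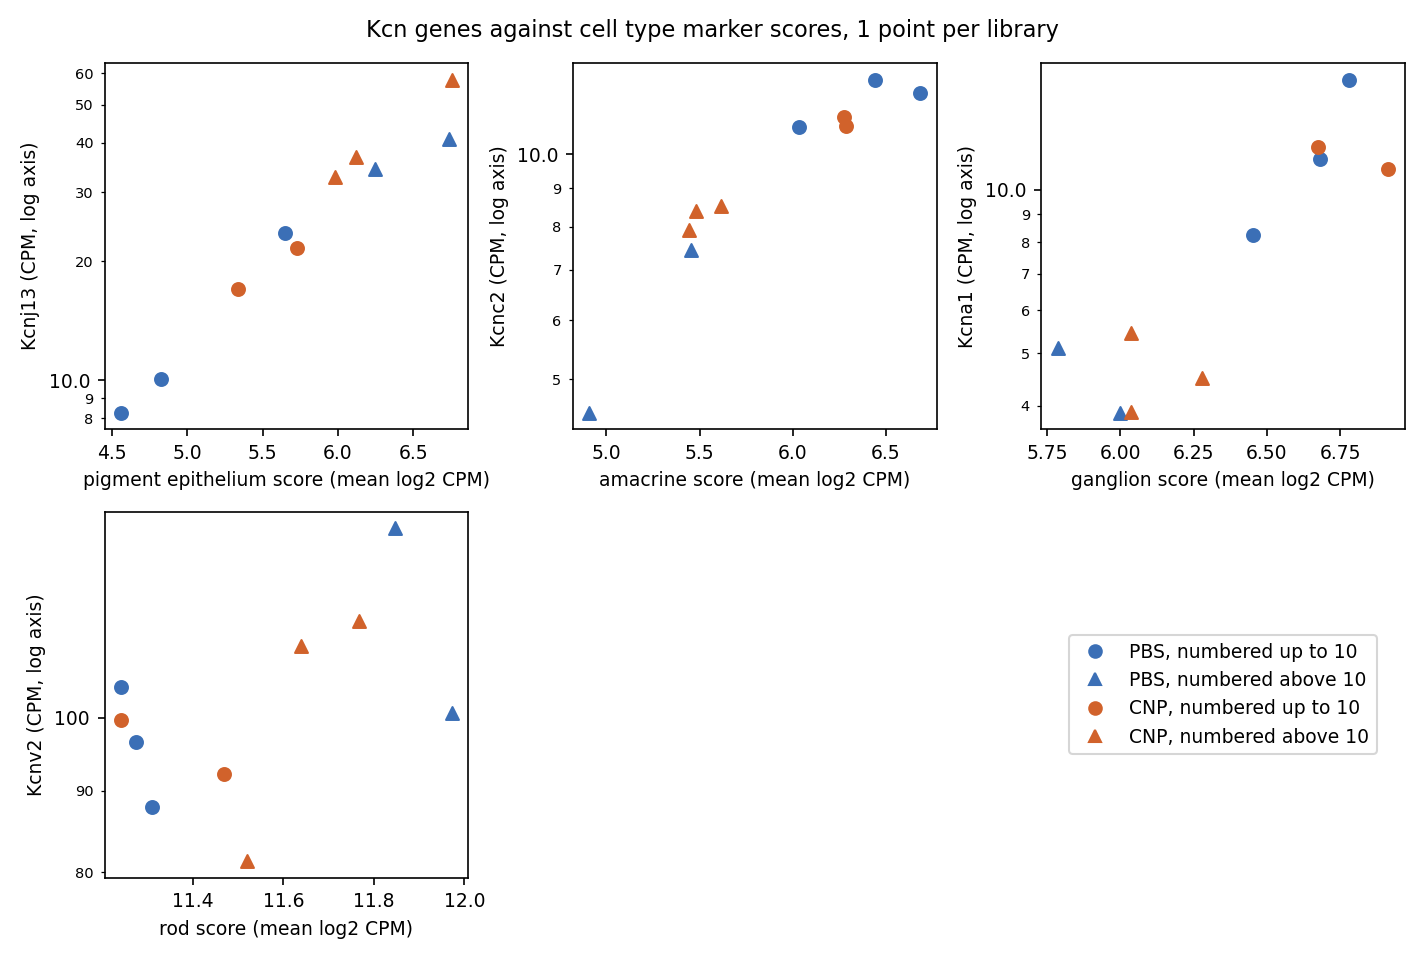
Level of 4 Kcn genes (CPM, log axis) against the score of a cell type (mean log2 CPM of its markers), with 1 point per library, coloured by group and shaped by library number. Kcnj13 goes with the pigment epithelium score inside both number sets (r within sets 0.94), whereas for Kcna1 and the ganglion score r was 0.89 over all libraries and 0.27 within sets.

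Other channel genes and channel partners were read from 4 lists for comparison. Of 31 tested genes, 0 passed at an adjusted p under 0.05 by edgeR's quasi-likelihood test. Among the 10 tested partners of potassium channels, the 2 with the most counts were Vapa, which clusters Kv channels at membrane contacts, with 592 CPM and a log2 fold change of 0.02, and the synaptic scaffold Dlg4, with 388 CPM and 0.03. Hcn3, a channel of the inward current that hyperpolarisation opens, had 4.88 CPM and a log2 fold change of 0.10. The sodium channel subunit Scn2b had 134 CPM and a log2 fold change of -0.10. The calcium channel subunits Cacna2d4 and Cacna2d3 had 71.4 and 26.03 CPM, with 0.03 and -0.05. Scn8a, named after its values were seen, was the 1 gene of the 31 with an unadjusted p under 0.05 (0.0291), with 3.16 ± 0.692 CPM for PBS libraries and 4.60 ± 0.770 CPM for CNP libraries (SD, n = 5 each; edgeR adjusted p = 1.00).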

How the data were processed

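The authors deposited raw counts per Ensembl gene for 10 neuroretina libraries. Polyadenylated RNA was reverse transcribed with barcoded primers carrying molecular identifiers, per the labels' protocols. STAR, STARsolo and build GRCm39 are named, per the submitters' processing notes. Versions, annotation, collapsing of identifiers and use of strand are not stated in any source used here, so counting limits may understate the error. Of all gene IDs, 51880 matched a symbol, and the rest held 0.881% of counts. No pair of libraries within a group was a duplicate (chi-square per degree of freedom 4.4 to 36.5 over 20 pairs).

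Counts were filtered with filterByExpr (at least 10 counts, total of 15). The 11499 genes kept were scaled by the trimmed mean of M-values. CNP and PBS were compared with edgeR 4.0.16 (quasi-likelihood test, Benjamini-Hochberg adjustment over all tested genes, threshold 0.05). Intervals are at 95%. Log2 CPM used a prior count of 2. On simulated counts for the same 11499 genes, the test recovered 80% of the genes changed 2-fold and 16% of those changed 1.5-fold, 50 genes at each size, with 8 false calls. The changed genes were picked at random from all tested genes, and no difference between number sets was simulated. Recovery for the Kcn genes alone was not simulated. Their median biological coefficient of variation was 27.1%, against 15.8% over all genes tested. Marker scores were correlated with members by 100000 permutations; values within number sets used all 14400 rearrangements within the sets and were added after the data had been seen.

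The members, classes, marker lists and tests were chosen with earlier results of these data known. Members described with every library's value were the 12 with the highest mean CPM, any with an unadjusted p under 0.05, the 3 largest log2 fold changes in each direction, the members of the correlated pairs, and the 2 on each side of 5 CPM. Other members at 5 CPM or more are given by mean and log2 fold change, and of each list of other channels the 2 genes with the most counts and any past the threshold. The pairs described are Kcnj13 with pigment epithelium, Kcnv2 with rod, Kcnc2 with amacrine, Kcna1 with ganglion and Kcnk13 with microglia markers, the last given as values since Kcnk13 was under 5 CPM. Alternatives were DESeq2 1.42.0, limma-voom (limma 3.58.1), other scalings, no filter, each library left out, and the pigment epithelium score or a library number above 10 as a covariate. Some single genes that this rule names are not reported here. Promoter sequences are from RefSeq on GRCm38.p6.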

Additional observations from a re-analysis of the deposited data

Results flagged for a closer look

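Among 62 groups of 5 libraries examined, which are the PBS and CNP values of the members singled out by the naming rule and of the other members at 5 CPM or more, 2 held a value far from the others, and chance gives about 1 in 20 groups. Kcna6 was at 12.9 CPM in PBS 14, below the 17.5 to 19.3 CPM of the other PBS libraries. Kcnc4 was at 9.28 CPM in CNP 4, above the 4.20 to 5.20 CPM of the other CNP libraries.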

How the results depend on the processing

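No paired analysis was possible because the groups share no replicate number. In all alternatives run (DESeq2, limma-voom, other scalings, no filter, each library left out, both covariates) 0 Kcn genes, 0 listed other channel genes and 0 genes in all passed the adjusted threshold. The count of members at 5 CPM or more was 27, and 27 to 28 with 1 library left out. The count depends on the limit: in order of mean CPM, Kcne1l at place 18 had 10.3 CPM and Kcnd3 at place 32 had 3.4 CPM. With pigment epithelium markers as a covariate the log2 fold change turned positive for Kcna5 (0.12), Kcnk1 (0.024), Kcnip1 (0.17), Kcnh2 (0.14), Kcnip4 (0.23), Kcnj9 (0.036), Kcnc2 (0.22), Kcna1 (0.19), Kcnj5 (0.29), Kcnk3 (0.29), Kcna4 (0.28), Kcnc1 (0.18), Kcna6 (0.043), Kcnip3 (0.17), Kcng4 (0.094) and Kcnip2 (0.062). With a term for library numbers above 10 the log2 fold change turned positive for Kcna5 (0.019), Kcnip1 (0.093), Kcnh2 (0.033), Kcnip4 (0.12), Kcnc2 (0.11), Kcnj5 (0.15), Kcnk3 (0.18), Kcna4 (0.13), Kcnc1 (0.017), Kcna6 (0.0004), Kcnip3 (0.059), Kcng4 (0.0084) and Kcnip2 (0.0094). Leaving out 1 library at a time, the sign turned in at least 1 case, with lowest and highest values of -0.024 to 0.095 for Kcnab2, -0.14 to 0.043 for Kcnj14, -0.12 to 0.035 for Kcnv2, -0.23 to 0.016 for Kcnip1, -0.25 to 0.098 for Kcnip4, -0.21 to 0.075 for Kcnc2, -0.53 to 0.016 for Kcna1, -0.22 to 0.10 for Kcnj5, -0.23 to 0.13 for Kcnk3, -0.29 to 0.089 for Kcna4, -0.097 to 0.16 for Kcnab1, -0.14 to 0.037 for Kcna6, -0.29 to 0.022 for Kcnip3 and -0.20 to 0.11 for Kcnip2. Over all 36 tested members, described singly or not, the count of negative values was 30, and became 9 and 13 under these covariates and 21 to 31 with 1 library left out. The other alternatives gave 29 or 30 negative values. Of the 28 tested members described singly, 8 kept their sign under every alternative run, but each moved by more than 1.5 times under at least 1. Their lowest and highest values over all alternatives were 0.21 to 0.84 for Kcnj13, 0.26 to 0.63 for Kcne1l, 0.039 to 0.24 for Kcnn1, -0.20 to -0.072 for Kcne2, -0.55 to -0.045 for Kcnma1, -0.55 to -0.22 for Kcnmb2, -0.46 to -0.018 for Kcnab3 and -0.62 to -0.12 for Kcnc4. Within the number sets the correlation of Kcna1 with the ganglion score was 0.27; the cause was not tested. With 1 library left out, r stayed at 0.97 to 0.99 for Kcnj13, 0.94 to 0.96 for Kcnc2, 0.88 to 0.92 for Kcna1 and 0.33 to 0.62 for Kcnv2. Of the simulated 1.5-fold changes, placed in genes picked from all those tested, 16% were recovered, so differences of that size can be missed with these libraries.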
